A study of Rattus norvegicus with 3 samples.

Results

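A set of 10 solute carrier genes of the meningeal barrier was followed in RNA from rat spinal cord, and 7 of the 10 had an entry in the deposited table of 12771 entries. The members were SLC6A13, SLC6A20, SLC22A2, SLC22A6, SLC22A8, SLC13A3, SLC13A4, SLC47A1, SLC16A11 and SLC26A7, found by their symbols. They were selected on the FPKM values of No-SCI and SCI in this same table, with earlier results in view, so the ratios between the groups are given as a description. No threshold on a value decided which genes belong. SLC22A6, SLC47A1 and SLC26A7 had no entry under their symbol or a RefSeq synonym.

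The RNA came from Sprague Dawley rats (females, 3 months old). The No-SCI group had only the laminectomy at T9, and the SCI group also received a contusion of 250 kdyne. Tissue at T8, rostral to the lesion, was taken after 24 h and digested at 6°C with a cold-active protease, and the fluid left above the pelleted cells was sequenced as total RNA without ribosomal RNA. The sample labels give 2 libraries for No-SCI and 1 for SCI, whereas the methods of the study speak of 2 animals for each condition. The table holds 1 FPKM value (fragments scaled by transcript length and by the mapped reads of the library, so that levels of different genes can be compared) for each group, estimated by the authors. It holds no value for a single library, so no spread between animals and no n can be given and no test was run here, while p and q values of the authors in the same table were not used. The methods state a read number for a sample, but the table gives no read count behind the value of a gene.

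The meninges separate the fluid around the cord from the blood of the dura. Their barrier lies in the arachnoid, whose cells are joined by tight junctions, and the fibroblasts of the pia and arachnoid carry transporters that are otherwise best known from kidney and liver. These proteins take up amino acids and GABA, exchange organic anions such as drugs and prostaglandins, move organic cations, and carry dicarboxylates, sulfate and monocarboxylates. The RNA here came from the fluid above the pelleted cells, which the paper describes as enriched in axonal RNA. Changes in the number of cells that carry a transporter, in RNA per cell and in the RNA that reached the fluid cannot be told apart.

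The SLC16A11 and SLC6A20 genes had the largest ratios among the members, and SLC13A4 and SLC13A3 belong to one family but differed in opposite directions. The bases before the RefSeq start of these 4 genes are therefore shown, 5′ to 3′ on the gene's strand, on the GRCr8 assembly. Capitals mark the matches, on either strand, to the motifs that are described further on.
SLC16A11, chr10:55427705-55427772, plus strand: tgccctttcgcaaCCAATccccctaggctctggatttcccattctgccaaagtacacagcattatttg
SLC6A20, chr8:132200017-132200150, minus strand: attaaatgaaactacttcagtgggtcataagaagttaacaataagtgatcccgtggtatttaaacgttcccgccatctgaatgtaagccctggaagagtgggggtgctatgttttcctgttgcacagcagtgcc
SLC13A4, chr4:64955987-64956236, minus strand: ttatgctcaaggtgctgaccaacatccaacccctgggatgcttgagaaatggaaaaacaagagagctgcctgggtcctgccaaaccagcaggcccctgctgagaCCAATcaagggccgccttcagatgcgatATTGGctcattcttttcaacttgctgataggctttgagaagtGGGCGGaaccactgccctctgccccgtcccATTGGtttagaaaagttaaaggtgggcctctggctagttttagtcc
SLC13A3, chr3:174623894-174624143, minus strand: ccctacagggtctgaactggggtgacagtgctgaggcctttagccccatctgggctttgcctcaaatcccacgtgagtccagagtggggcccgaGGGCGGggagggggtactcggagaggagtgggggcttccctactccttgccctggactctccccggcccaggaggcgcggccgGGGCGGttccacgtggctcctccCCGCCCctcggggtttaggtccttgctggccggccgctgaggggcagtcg
For SLC16A11 and SLC6A20, 68 and 134 bases are shown, since the other bases of the window lie within the annotated span of the gene. The sequences serve to identify the genes, and the values themselves were made by the authors on the rn6 assembly.

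Most of the listed members were more abundant in SCI. Of the 7, 5 had a value at least 2-fold higher in SCI, 1 (SLC22A2) was higher by less than this, and 1 (SLC13A3) was at least 2-fold lower. Over all entries, 7.96% were at least 2-fold higher and 12.1% at least 2-fold lower. Counts of genes at least 2-fold apart in the families and lists below stand against these shares. The median log2 ratio of SCI to No-SCI over the 7 was 2.54, and the median over all entries was −0.12. Nothing is read from this contrast about the members as a set, because it was known when they were chosen.

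**Figure D1:**
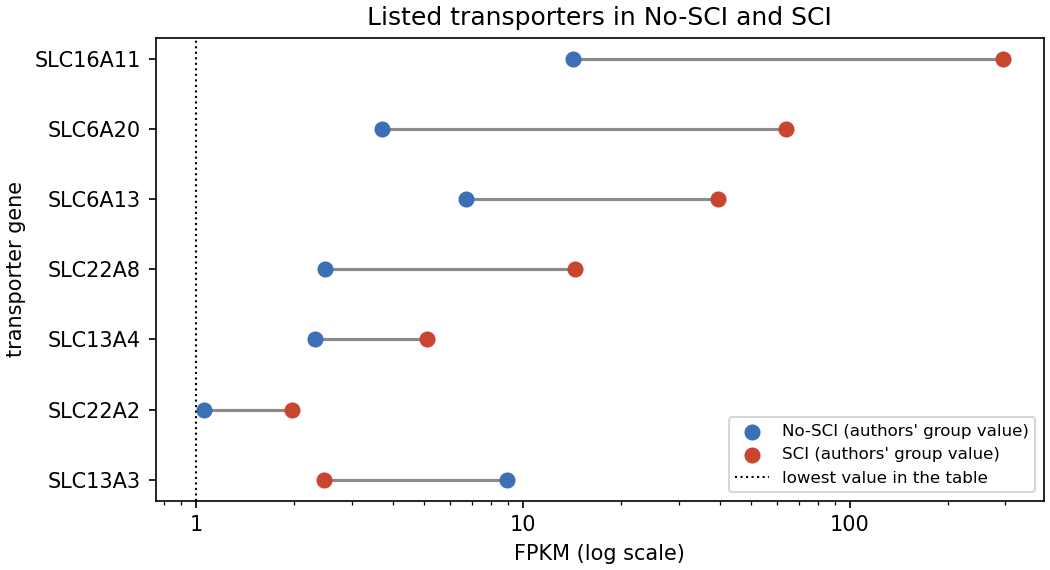
Authors' group FPKM values (log axis) of the 7 listed transporters in No-SCI (blue) and SCI (red), joined by a line, with the lowest value of the table dotted. SLC16A11 spans 14.3 to 296 FPKM, SLC22A2 lies next to the lowest value, and SLC13A3 alone has its SCI value to the left.

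SLC6A13 and SLC6A20 carry amino acids and related solutes. The first, SLC6A13, is the GABA transporter GAT2, which also takes up betaine and taurine. It had an authors' value of 6.71 FPKM in No-SCI and 39.6 FPKM in SCI. This is 5.91-fold higher, a log2 ratio of 2.56, and it moved the gene from percentile 27.1 to percentile 70.7 of all entries. SLC6A20, a carrier of proline and other imino acids, had 3.72 FPKM in No-SCI and 64.0 FPKM in SCI. Its ratio was 17.2-fold, or 4.10 on the log2 scale, which ranked 17 among all entries. The rat has a close copy of this gene, Slc6a20b, next to Slc6a20a on GRCr8, and the table has 1 entry, SLC6A20, for the pair, so that the value of SLC6A20 may hold reads of either copy.

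The other listed genes of the SLC6 family stood on the other side. All 6 had a lower value in SCI, and 4 of them were at least 2-fold lower, against 12.1% of all entries. SLC6A9, the glycine transporter GLYT1, had 20.4 FPKM in No-SCI and 6.85 FPKM in SCI. The taurine transporter SLC6A6 was at 26.6 and 12.3 FPKM. In No-SCI the value of SLC6A13 was thus below those of SLC6A9 and SLC6A6, and in SCI it was above both. SLC6A11 and SLC6A12, further GABA carriers of the family, had no entry. In a wider list of GABA, betaine, proline and glycine transporters and enzymes, 14 of 20 genes were listed, 0 were at least 2-fold higher and 4 at least 2-fold lower, with a median log2 ratio of −0.85. The most abundant of that list was PRODH1, proline dehydrogenase, with 74.9 FPKM in No-SCI and 40.2 FPKM in SCI.

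Organic anions are handled by SLC22A8 and SLC22A6, the exchangers OAT3 and OAT1. The value of SLC22A8 was 2.49 FPKM (percentile 8.64) in No-SCI and 14.5 FPKM (percentile 48.1) in SCI. The ratio was 5.81-fold, or 2.54 on the log2 scale, and 9.05-fold with 1 subtracted from every value. SLC22A6 is its neighbour on GRCr8 and had no entry in the table. A missing entry is not taken here as a measure of absence. The astrocyte genes GFAP and AQP4 and the oligodendrocyte gene MBP had none either, and the paper counts them as not detected. Yet MOBP, another oligodendrocyte gene, had 44200 FPKM in No-SCI.

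Organic cations are taken up by SLC22A2, the carrier OCT2, and released in exchange for protons by SLC47A1, MATE1, which had no entry. SLC22A2 was listed at 1.06 FPKM in No-SCI and 1.97 FPKM in SCI, which is 1.86-fold higher or 0.90 on the log2 scale. Both values lie at the lower end of the table, at percentiles 0.204 and 5.92, and no value in the table is below 1. Whether the authors added a constant of 1 is not given in the sources used here. With 1 subtracted from every value, SLC22A2 would stand at 0.0593 and 0.974 FPKM and its ratio would be 16.4-fold, and with a pseudocount of 1 its log2 ratio was 0.53. After median centring or scaling to the same upper quartile it passed the 2-fold line. The size of its ratio is therefore not fixed by these data.

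The relatives in the SLC22 family had smaller ratios. Of 4 listed, 2 were at least 2-fold lower and 0 at least 2-fold higher. SLC22A5, the carnitine transporter OCTN2, was among the lower ones, with 16.9 FPKM in SCI and a log2 ratio of −1.05, and SLC22A17 had 17.1 FPKM in No-SCI and 23.4 FPKM in SCI. In No-SCI each of these was above SLC22A8 and SLC22A2, and they remained above both in SCI. SLC22A3, a neighbour of SLC22A2 on GRCr8, had no entry.

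The 2 listed members of the SLC13 family differed in opposite directions. SLC13A4, a sodium-coupled sulfate transporter, had 2.31 FPKM in No-SCI and 5.11 FPKM in SCI, a ratio of 2.21-fold or 1.14 on the log2 scale. With a pseudocount of 1 the log2 ratio of SLC13A4 was 0.88, under the 2-fold line. SLC13A3, the sodium-coupled dicarboxylate transporter NADC3, had 8.95 FPKM in No-SCI and 2.47 FPKM in SCI, which is 3.62-fold lower or −1.86 on the log2 scale. By the authors' group values, only SLC16A11 of the 7 members stood above SLC13A3 in No-SCI, and only SLC22A2 stood below it in SCI. The log2 ratio of SLC13A3 ran from −2.43 with 1 subtracted to −1.52 with a pseudocount of 1. None of the treatments tried could change its sign. SLC26A7, an anion exchanger for chloride and bicarbonate, had no entry, and the listed relative SLC26A2, a sulfate transporter, was at 11.3 FPKM in No-SCI and 10.7 FPKM in SCI.

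In a list of genes for sulfate uptake, activation and transfer, 16 of 22 were listed, 1 was at least 2-fold higher and 1 at least 2-fold lower. The higher one was SULT1A1, a sulfotransferase of phenols, with 17.7 FPKM in No-SCI and 78.1 FPKM in SCI. The 3 most abundant by the mean of both groups were BPNT1 (123 and 77.0 FPKM in No-SCI and SCI), PAPSS1 (78.7 and 53.3 FPKM), which makes the active sulfate donor, and SULT1A1. The lower one was SULT4A1, a sulfotransferase of neurons, at 50.1 and 16.0 FPKM, a gene chosen after its values were seen.

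SLC16A11, of the monocarboxylate transporter family, was the most abundant member in both groups. Its authors' value was 14.3 FPKM in No-SCI, at percentile 45.5, and 296 FPKM in SCI, at percentile 94.5. The ratio of 20.7-fold, or 4.37 on the log2 scale, ranked 7 among all 12771 entries. Treatment of the values moved it little, from 4.28 with a pseudocount of 1 to 4.49 after median centring. SLC16A11 alone made up 36.1% of the summed FPKM of the members in No-SCI and 69.8% in SCI.

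The SLC16 family was mixed, with 2 of 8 listed relatives at least 2-fold higher and 1 at least 2-fold lower. SLC16A3, the lactate exporter MCT4, had 6.57 FPKM in No-SCI and 30.7 FPKM in SCI, and SLC16A13 had 4.22 and 13.2 FPKM. SLC16A1, the lactate carrier MCT1, was at 23.2 FPKM in No-SCI and had a log2 ratio of −1.36. SLC16A13 lies next to SLC16A11 on GRCr8, and the gene on the other side, BCL6B, had 8.13 and 9.93 FPKM. The 14 listed genes of a list on dicarboxylate and monocarboxylate handling had a median log2 ratio of −0.05, with 2 at least 2-fold higher (SLC16A3 and SLC16A13) and 2 at least 2-fold lower. By the mean of both groups its most abundant genes were ASPA, which splits N-acetylaspartate, with 238 FPKM in No-SCI and 319 FPKM in SCI, BSG, a chaperone of monocarboxylate carriers, with 164 and 243 FPKM, and OGDH, of the citrate cycle, with 252 and 94.5 FPKM.

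**Figure D2:**
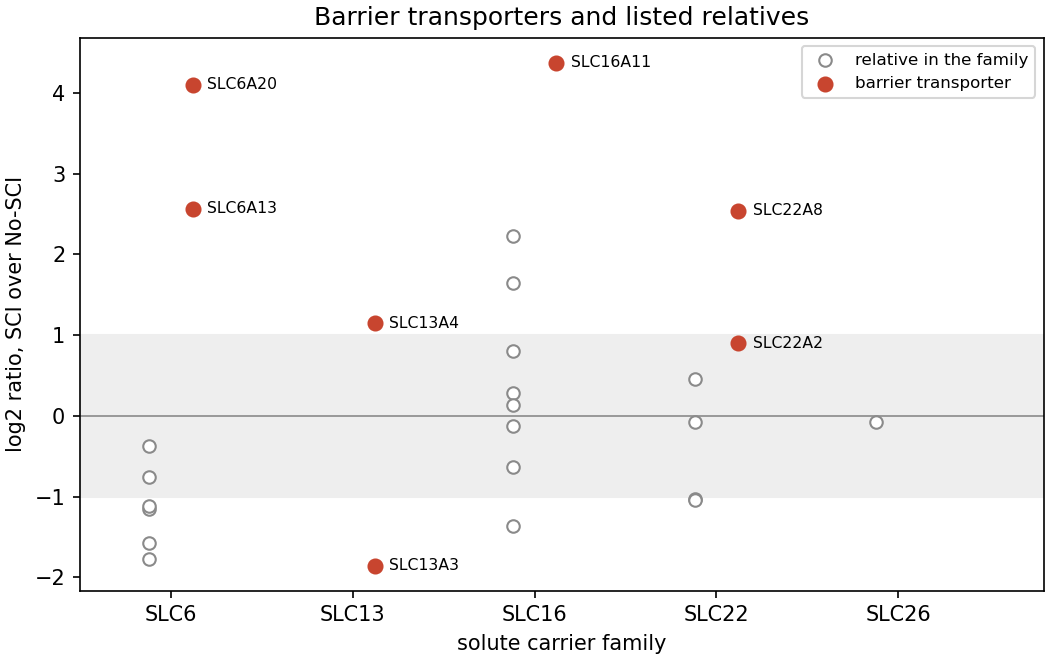
Log2 ratio of SCI to No-SCI for the 7 barrier transporters (red) and the 19 listed relatives (open circles) by solute carrier family, with the band of less than 2-fold shaded. The SLC6 and SLC22 members lie above each listed relative of their family, the 2 SLC13 members lie on opposite sides of 0, and in SLC16 2 relatives lie above the band with SLC16A11.

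Across these families, 19 relatives were listed. Of these, 2 (10.5%) were at least 2-fold higher and 7 (36.8%) at least 2-fold lower in SCI, against 7.96% and 12.1% of all entries. The median log2 ratio of the relatives was −0.38, and their median FPKM was 10.3 in No-SCI and 7.96 in SCI. The count of 7 depends on the scaling, since it was 4 after the median of all entries was centred. Among all 191 listed SLC and SLCO genes, SLC16A11, SLC6A20, SLC6A13 and SLC22A8 had the 4 largest ratios, followed by SLC16A3 and SLC19A1, while SLC13A4 stood at place 13 and SLC22A2 at place 15. That order reflects in part how the members were picked.

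As deposited, the range of the members' levels was wider in SCI. In No-SCI the order from high to low was SLC16A11, SLC13A3, SLC6A13, SLC6A20, SLC22A8, SLC13A4 and SLC22A2, and the highest was 13.5 times the lowest. In SCI the order was SLC16A11, SLC6A20, SLC6A13, SLC22A8, SLC13A4, SLC13A3 and SLC22A2, and the highest was 150 times the lowest (these levels are FPKM, scaled by length). Both quotients divide by SLC22A2, near the lowest value of the table, so the widening depends on how low values are treated. With 1 subtracted, SLC22A2 would stand at 0.0593 and 0.974 FPKM in No-SCI and SCI, and SLC16A11 at 13.3 and 295 FPKM. Close values cannot be ranked without the spread between animals. Examples are SLC22A8 and SLC13A4 in No-SCI (2.49 and 2.31 FPKM) and SLC13A3 and SLC22A2 in SCI (2.47 and 1.97 FPKM). In No-SCI 0 of the 7 were above the median of all entries, 17.2 FPKM, and in SCI 3 were above the median of 15.6 FPKM. The summed FPKM of the 7 was 39.5 in No-SCI and 423 in SCI.

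Other transporters of brain barriers were set beside the members. In a list of further organic anion, organic cation and drug transporters, 12 of 23 genes were listed (its 25 symbols hold synonyms), 1 was at least 2-fold higher and 3 at least 2-fold lower, with a median log2 ratio of −0.71. The most abundant by the mean of both groups were SLC22A5, given above, SLCO2B1 with 29.2 FPKM in No-SCI and 18.3 FPKM in SCI, and ABCC5 with 10.1 and 7.44 FPKM. The single higher gene, named after its values were seen, was SLCO2A1, the prostaglandin transporter, with 2.62 and 6.77 FPKM. In a list of nutrient transporters of brain endothelium, 14 of 16 were listed, 0 were at least 2-fold higher and 3 at least 2-fold lower, with a median log2 ratio of −0.55. By the mean of both groups its most abundant genes were SLC3A2, the heavy chain of amino acid exchangers, with 314 and 262 FPKM, SLC6A6, given above, and SLC7A11, the cystine and glutamate exchanger, with 23.1 and 13.5 FPKM.

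Organic anion exchangers also clear prostaglandins, and 11 of 13 genes of prostaglandin synthesis and clearance were listed. Of these, 3 were at least 2-fold higher in SCI and 0 at least 2-fold lower, against 7.96% and 12.1% of all entries. The median log2 ratio was 0.65. PTGDS, which makes prostaglandin D and is a classic product of the leptomeninges, had 16.2 FPKM in No-SCI and 224 FPKM in SCI, and PTGES, a prostaglandin E synthase, had 2.63 and 16.9 FPKM. The other higher gene was SLCO2A1. ABCC4, an exporter of prostaglandins, had 3.31 and 1.71 FPKM, and PTGES3, the most abundant gene of the list in No-SCI, had 135 and 134 FPKM.

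Of a list of scaffolds and regulators of epithelial transporters, 9 of 16 genes were listed (its 19 symbols hold synonyms), 2 at least 2-fold higher and 1 at least 2-fold lower. SLC9A3R2, a PDZ scaffold of apical transporters, had 103 FPKM in No-SCI and 241 FPKM in SCI. WNK4, a kinase of the distal nephron, had 8.23 and 17.2 FPKM and was named after its values were seen. The kinase WNK1 had 665 and 429 FPKM.

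Most markers in a list of meningeal fibroblast genes were higher in SCI. Of 20 such genes 19 were listed, with a median log2 ratio of 2.75. At least 2-fold higher in SCI were 18 of these, against 7.96% of all entries, and 0 were at least 2-fold lower. Both this list and the members were chosen with earlier results of these data known, so nothing is read from their shared direction. Summed over the list, the level went from 187 to 2054 FPKM. TBX18 was the one gene without an entry. MGP, a matrix protein that restrains calcification, had 47.5 FPKM in No-SCI and 757 FPKM in SCI, the proteoglycan DCN had 15.1 and 156 FPKM, and ISLR had 6.78 and 128 FPKM. The summed FPKM of the 7 transporters was 0.211 times that of the fibroblast genes in No-SCI and 0.206 times in SCI. SLC16A11 made up 36.1% of the transporters' sum in No-SCI and 69.8% in SCI, so these quotients do not describe each transporter. SLC13A3 did not share the direction of these markers. The part of the fibroblast markers in the ratios of the transporters was not tested.

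**Figure D3:**
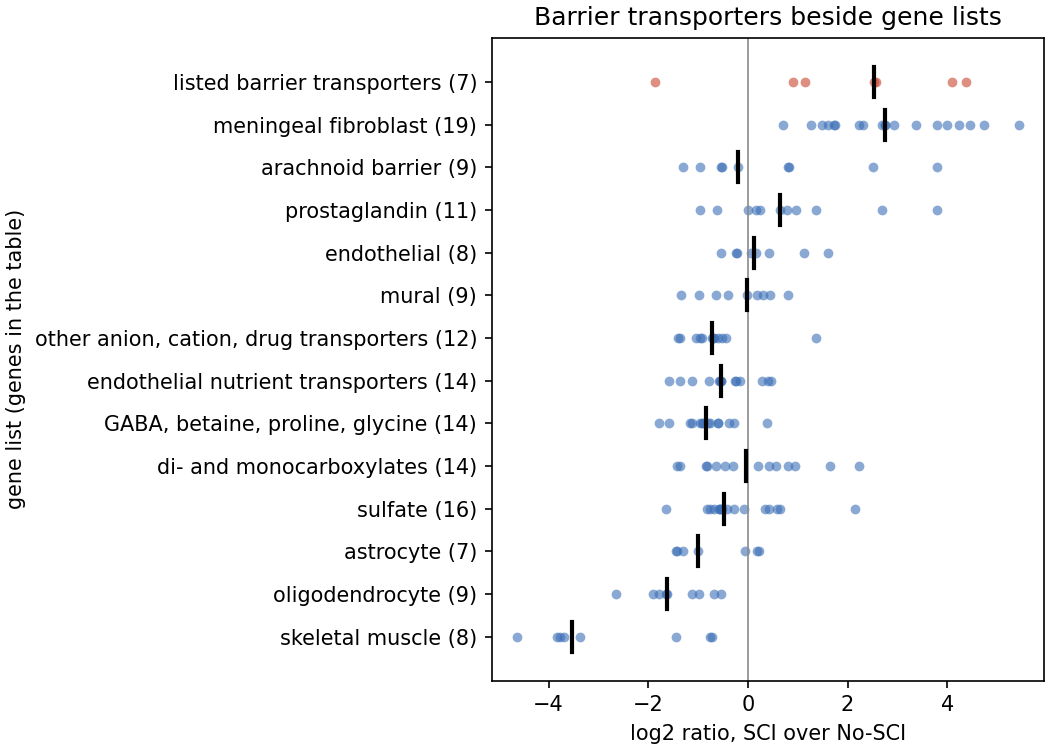
Log2 ratio of SCI to No-SCI for each listed gene of 13 lists (blue) and for the 7 barrier transporters (red), with the median of each as a black bar. The meningeal fibroblast median of 2.75 lies next to the transporters' 2.54, the other barrier transporter lists lie below 0, and skeletal muscle lies lowest at −3.52. The lists and the transporters were chosen with earlier results of these data known, so nothing is read from this nearness.

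Markers of the arachnoid barrier itself were divided. Of 11 genes 9 were listed, with 2 at least 2-fold higher, 1 at least 2-fold lower and a median log2 ratio of −0.19, and their summed FPKM was 302 in No-SCI and 369 in SCI. KLF5, a transcription factor of epithelia, had 3.06 FPKM in No-SCI and 17.5 FPKM in SCI. PTGDS, the other higher one, had 16.2 and 224 FPKM and so rose by more than the sum of the list did. TJP1, of tight junctions in general, had 247 and 100 FPKM, and CLDN11, which myelin also contains, had 24.5 and 16.7 FPKM. The epithelial cadherin CDH1 was near the lowest value of the table, at 1.11 and 1.93 FPKM, and DPP4 and ABCG2 had no entry. The label of a meningeal barrier thus rests on where these transporters are known to occur, since the listed markers of barrier cells were divided in direction. The missing entries of DPP4 and ABCG2 are no measure of absence.

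Other cell types that carry some of these transporters were also set beside them. Of 11 choroid plexus markers 3 were listed, with summed FPKM of 6.96 and 15.0 for No-SCI and SCI and 2 at least 2-fold higher in SCI. The defining gene TTR had no entry. The higher ones were FOLR1, a folate receptor, and KCNJ13, a potassium channel of that epithelium. FOLR1 had 3.47 and 9.82 FPKM, and its ratio of 2.83-fold is the median of the 3. KCNJ13 had 1.05 and 3.28 FPKM, the first next to the lowest value of the table. The remaining one, CLIC6, was lower in SCI, with 2.43 and 1.86 FPKM. The part of these markers in the ratios of the transporters was not tested. The 6 listed ependymal genes had a median log2 ratio of −0.41, the 8 endothelial genes 0.12 (2 at least 2-fold higher) and the 9 mural genes −0.03. Astrocyte genes had a median log2 ratio of −1.01 (4 of 7 listed genes at least 2-fold lower), oligodendrocyte genes −1.62 (6 of 9), neuronal genes −0.97 (4 of 8) and skeletal muscle genes −3.52 (6 of 8). The 10 microglia and macrophage genes were at 0.05. Beside these counts, 7.96% of all entries were at least 2-fold higher and 12.1% at least 2-fold lower. Centring the median of all entries adds 0.12 to each log2 ratio and turns the medians of the mural list and of the list on dicarboxylates and monocarboxylates positive. Oligodendrocyte genes, which mark the cord itself, summed to 88379 FPKM in No-SCI and 48279 FPKM in SCI. Skeletal muscle genes summed to 431 FPKM in No-SCI and 50.9 FPKM in SCI, and the part of this difference in the ratios of the transporters was not tested.

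Genes next to the members on GRCr8 were looked up by name and order. FAM180A, beside SLC13A4, had 12.8 FPKM in SCI, which was 9.87-fold its value in No-SCI and a larger ratio than that of SLC13A4 itself. STMP1, on the other side of SLC13A4, was at 631 and 676 FPKM. USP18, beside SLC6A13, had 15.0 and 5.17 FPKM, and LZTFL1, beside SLC6A20, had 23.3 and 15.9 FPKM. SLC16A11 and SLC13A4 thus each had a neighbour at least 2-fold higher in SCI, whereas at SLC6A13 and SLC6A20 the neighbour on the other side (SLC6A12 and Slc6a20b) had no entry.

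Promoter windows of 250 bases before the RefSeq start were found for 6 of the 10 members (SLC6A20, SLC22A2, SLC22A8, SLC13A3, SLC13A4 and SLC16A11). Their GC content ran from 49.2% to 69.2%, highest in SLC13A3, against a median of 51.2% over 33469 RefSeq windows of this length. Each motif was searched on both strands. The forkhead core TGTTTAC, the AP-1 site TGANTCA and the TATA box TATAAA were in 0 of the 6 windows, against 3.21%, 6.34% and 12.9% of all windows. The GC box GGGCGG was in SLC13A3 and SLC13A4 (30.5% of all windows), and the CCAAT box in SLC22A2, SLC13A4 and SLC16A11 (34.0%). The nuclear receptor element AGGTCA was in SLC16A11 alone (14.1%), in the part of its window that is not shown. The windows of SLC13A4 and SLC13A3 printed above thus share the GC box and differ in the CCAAT box. A match is a description of letters and says nothing of binding.

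**Figure D4:**
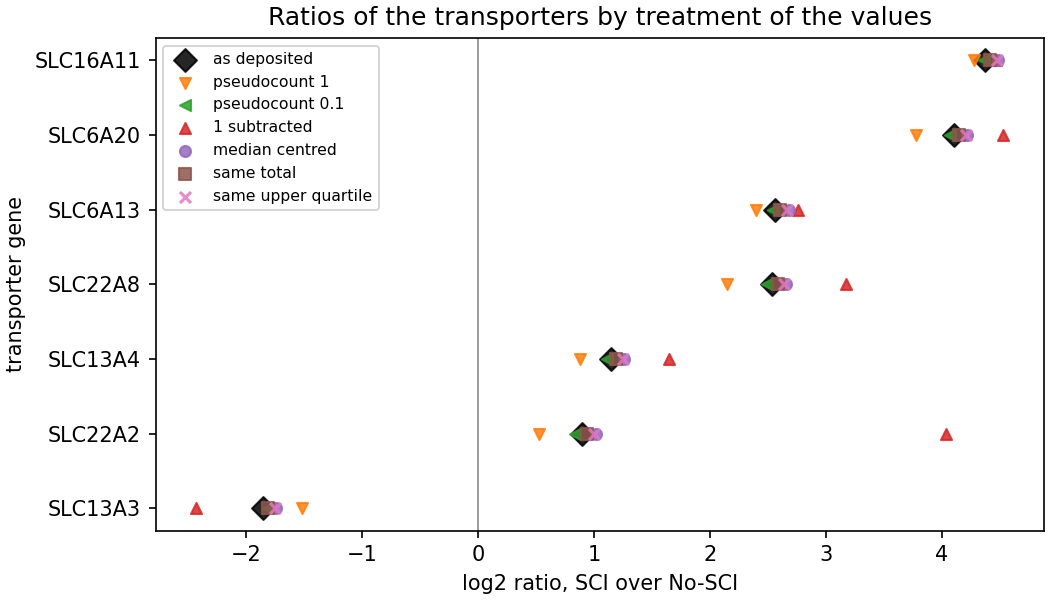
Log2 ratio of SCI to No-SCI of each listed transporter as deposited (black diamond) and under 6 other treatments of the values (coloured marks). Each gene keeps its side of 0, which these treatments could not change. SLC22A2 moves furthest, from 0.90 as deposited to 4.04 with 1 subtracted.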

How the data were processed

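Ribosomal RNA was depleted from the supernatant RNA and stranded total RNA libraries were sequenced. Per the labels and the methods, the authors cut each library to the read number of the smallest one and aligned with STAR 2.5.4b to rn6. Cuffdiff 1.3.0, scaled by the upper quartile, gave the deposited FPKM, 1 estimate by the authors for No-SCI and 1 for SCI. The table also holds the authors' own comparison (fold change, p and q), which was not used. The methods state how many reads each sample had, but no read count for each gene was given, and with 1 value a group no test was run here.

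Columns were assigned by the group that the file names for them. Of the 13 symbols that occur again, the entry of larger mean was kept. Log2 ratios (SCI over No-SCI) had no pseudocount, and genes at least 2-fold apart were counted, in Python 3.11.15 with numpy 2.4.6, pandas 2.3.3 and matplotlib 3.10.9. These steps were run on simulated ratios without noise, which checks the arithmetic and says nothing of how reliable the ratios are. The members and the 18 lists were chosen with earlier results of these data known. All members are named, and of each list up to 3 of the most abundant genes and up to 4 of those at least 4-fold apart. Alternatives were pseudocounts of 1 and 0.1, 1 subtracted, median centring, the same total or upper quartile, a mean of at least 5 FPKM, and folds of 1.5 and 4. Sequences are from RefSeq (GRCr8).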

Additional observations from a re-analysis of the deposited data

How the results depend on the processing

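No replicate could be left out, since the table holds 1 value per group. No paired analysis was possible because the result comes from no test and the columns carry no replicate. The 47 ratios of single members under the 7 alternatives included 0 that changed sign, an outcome fixed in advance. A constant added to or subtracted from both values cannot change a sign. The scalings moved each log2 ratio by at most 0.12, less than that of any member. The count of 5 members at least 2-fold higher stayed between 4 and 6 under the 7 alternatives and under folds of 1.5 and 4. The median log2 ratio of the members, 2.54 as deposited, was 2.15 with a pseudocount of 1, 2.49 with a pseudocount of 0.1, 3.18 with 1 subtracted, 2.66 after median centring, 2.58 with the same total, 2.64 with the same upper quartile, and 2.56 over the 5 members with a mean of at least 5 FPKM. The count of 7 relatives at least 2-fold lower was 4 after median centring and 0 with a fold of 4. Centring raised all log2 ratios by 0.12 and scaling to the same upper quartile by 0.10. Without a value for each library, the spread between animals limits every ratio, and low values limit SLC22A2 most.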

Other observations

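Carriers of folate, outside the families of the members, were named after their values were seen. Of those given here, SLC19A1 alone was at least 2-fold apart. SLC19A1, the reduced folate carrier, had an authors' value of 9.76 FPKM in No-SCI and 36.5 FPKM in SCI. SLC46A1, the proton-coupled folate transporter, had 2.32 and 1.66 FPKM. SLC25A32, the mitochondrial folate carrier, had 5.22 and 4.74 FPKM. Its log2 ratio of −0.14 lay next to the median of all entries, −0.12. No test was run here on these differences.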
